A study of Homo sapiens with 12 samples.

Results

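The genes described here are the G1 cyclins, their kinases and the RB/E2F switch: CCND1, CCND3, CCNE1, CCNE2, CDK2, CDK4, CDK6, CDKN1B, RB1 and E2F1. They were taken by symbol from a fixed list, drawn up with earlier results of these data known, and 10 of 10 were found among 18969 genes listed. All 10 had enough counts to enter the test, which ran over 12741 genes. The cells were HCT116, an established human colorectal carcinoma line, grown in RPMI-1640 with fetal bovine serum and sequenced as 12 bulk RNA libraries in 3 groups of 4. In the UNC0642 recovery group, cells were starved of methionine for 24 h while exposed to UNC0642, an inhibitor of the histone H3 lysine 9 methyltransferases EHMT1 and EHMT2, then washed and given methionine back for 24 h without the inhibitor. The DMSO recovery group went through the same starvation and refeeding with the vehicle DMSO. The 0 h group carries the treatment label 0 hours. The design text places the groups before and after recovery, but no label says whether the 0 h cells had themselves been starved. Titles number the replicates, but no label calls them separate cultures. The p-values therefore rest on sample-to-sample spread alone, and that spread may be technical.

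A cell commits to DNA replication in late G1. D-type cyclins, whose transcription follows growth signals, bind CDK4 or CDK6 and begin to phosphorylate the retinoblastoma protein RB1, which holds E2F factors such as E2F1 in check. Freed E2F switches on cyclin E, cyclin E with CDK2 phosphorylates RB1 further, and the inhibitor p27, made from CDKN1B, restrains CDK2. Much of this control acts through protein modification and turnover, which RNA counts do not measure.

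Promoter windows reaching from 250 bases before to 50 bases after the annotated start were given by RefSeq for 7 of the 10 genes (build GRCh38.p14). CCND1, CDK2 and CCNE2 had none in that table. The windows were searched on both strands for the E-box CACGTG, a palindrome bound by MYC and related factors, and for the E2F spellings TTTCCCGC, TTTCGCGC, TTTGCCGC and TTTGGCGC, and no E-box match overlapped an E2F match. The promoters of CDK4 and E2F1 are shown because CDK4 was the gene of the set with the largest fall and E2F1 had the E2F spellings. The 250 bases before the start are printed 5′ to 3′ on the gene's own strand, with E-box matches in capitals for CDK4 (chr12:57752311-57752560, minus strand) and E2F matches in capitals for E2F1 (chr20:33686386-33686635, minus strand).
CDK4: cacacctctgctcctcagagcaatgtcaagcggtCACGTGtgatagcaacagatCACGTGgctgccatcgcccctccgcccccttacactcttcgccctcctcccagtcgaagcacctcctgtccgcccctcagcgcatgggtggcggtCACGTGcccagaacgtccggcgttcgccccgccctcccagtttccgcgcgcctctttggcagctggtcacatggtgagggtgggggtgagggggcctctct
E2F1: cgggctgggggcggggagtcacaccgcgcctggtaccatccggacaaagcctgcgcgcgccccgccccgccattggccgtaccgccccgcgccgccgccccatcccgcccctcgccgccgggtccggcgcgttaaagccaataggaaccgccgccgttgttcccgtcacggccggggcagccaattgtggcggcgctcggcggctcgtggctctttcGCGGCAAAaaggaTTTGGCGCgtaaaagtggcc
The CDK4 window had 3 E-boxes, and at least 3 were found in 0.094% of 35116 windows of the same length, against 7.26% with at least 1. The E2F1 window had 2 E2F matches, and at least 2 were found in 0.145% of windows, against 3.31% with at least 1. Among the other members with a window, CDK6 had 1 E-box in 1 of its 2 windows and no further match was found for CCND3, CCNE1, CDKN1B or RB1. A match describes letters only, and no factor's binding was measured here.

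The deposited counts summed to between 14658082 and 20179847 per library, and the biological coefficient of variation over the tested genes was 3.44%. Libraries of a group differed by more than sampling noise in each of 18 pairs, so none was treated as a duplicate. The gap between a gene's length and its effective length, which the files give, was 101 to 106 bases in 5 libraries and 120 to 127 bases in 7, and each group had libraries of both classes. The collagen gene COL1A2, a fibroblast marker, exceeded 1 CPM in 6 libraries. The summed fibroblast markers came to 25.9 to 35.1 CPM in UNC0642, 25.1 to 34.7 CPM in DMSO and 19.8 to 39.7 CPM in 0 h libraries, most of it COL1A1. The summed blood markers were at 1.29 to 2.36, 1.11 to 1.85 and 1.75 to 5.57 CPM in the same order, and the endothelial sum was at most 1.41 CPM in any library. Of 7 colorectal epithelial markers, EPCAM, CDH1, KRT8 and KRT18 were plainly expressed, while CDX1 was at 0 in every library and VIL1 and CEACAM5 were at or near 0. The epithelial sum was 4541 to 4735 CPM after UNC0642 recovery, 4523 to 4659.7 CPM after DMSO recovery and 4044 to 4133 CPM at 0 h. Its members went both ways. KRT8, KRT18 and CDH1 were called higher in both recovery groups than at 0 h, by 0.24, 0.14 and 0.28 on the log2 scale after UNC0642 and by 0.20, 0.13 and 0.43 after DMSO recovery, while EPCAM was lower (-0.18 and -0.10). Among the fibroblast markers COL1A1 was higher in both (0.28 and 0.22), and COL1A2 (-2.49), COL3A1 (-1.95) and DCN (-2.53) were called lower in DMSO recovery than at 0 h, none of these 3 above 6.81 CPM in any library. The haemoglobin genes HBA1 (-1.02 and -1.36) and HBB (-1.79 and -1.72) were lower in both recovery groups, HBA2 was called lower after DMSO recovery (-1.68), and the endothelial gene VWF was called higher there (1.41). The part of these markers in the results below was not tested beyond leaving out the 6 libraries with COL1A2. That fit kept replicate 4 as the only 0 h library, so a loss of calls over 0 h there cannot be ascribed to the markers.

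Levels of different genes are compared only per length, in FPKM (fragments scaled by transcript length and library size). CCND1, the main D-type cyclin of these cells, had the highest level of the set, at 320.2 ± 2.65 FPKM after UNC0642 recovery, 304 ± 2.13 FPKM after DMSO recovery and 311 ± 2.88 FPKM at 0 h (SD, n = 4 each). CDK4 came next, at 178 ± 3.51, 172 ± 4.61 and 201 ± 2.79 FPKM in the same groups. By 0 h level CCND1 ranked at place 240 and CDK4 at place 400 among the tested genes. CDK2 followed at 64.8 ± 0.629, 65.9 ± 1.62 and 65.5 ± 1.12 FPKM, clear of its neighbours in every group.

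The lower part of the order was closer. CCND3 averaged 35.6 ± 0.584 FPKM after UNC0642 recovery, 35.2 ± 1.32 FPKM after DMSO recovery and 27.8 ± 0.535 FPKM at 0 h, and CCNE1 averaged 33.9 ± 1.53, 32.3 ± 2.32 and 27.5 ± 1.79 FPKM, so that the ranges of the pair overlapped in each group. E2F1 stood at 24.2 ± 0.607, 24.0 ± 1.63 and 22.3 ± 0.920 FPKM and CDK6 at 19.96 ± 1.64, 21.3 ± 1.26 and 18.8 ± 0.604 FPKM, and this pair overlapped after DMSO recovery only. CDK6 and CCNE2 overlapped in both recovery groups and not at 0 h. At the foot of the order, CCNE2, RB1 and CDKN1B overlapped one another at 0 h, at 15.4 ± 0.932, 14.5 ± 0.579 and 15.1 ± 0.512 FPKM. After DMSO recovery CCNE2, at 18.8 ± 0.904 FPKM, stood clear of RB1 (15.6 ± 1.38) and CDKN1B (15.1 ± 0.271), and after UNC0642 recovery its range, around 17.5 ± 0.985 FPKM, met that of RB1 (15.8 ± 1.08) again. CCND2, the remaining D-type cyclin gene, was too low to be tested and lay between 0 and 0.02 FPKM in the 12 libraries.

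**Figure D1:**
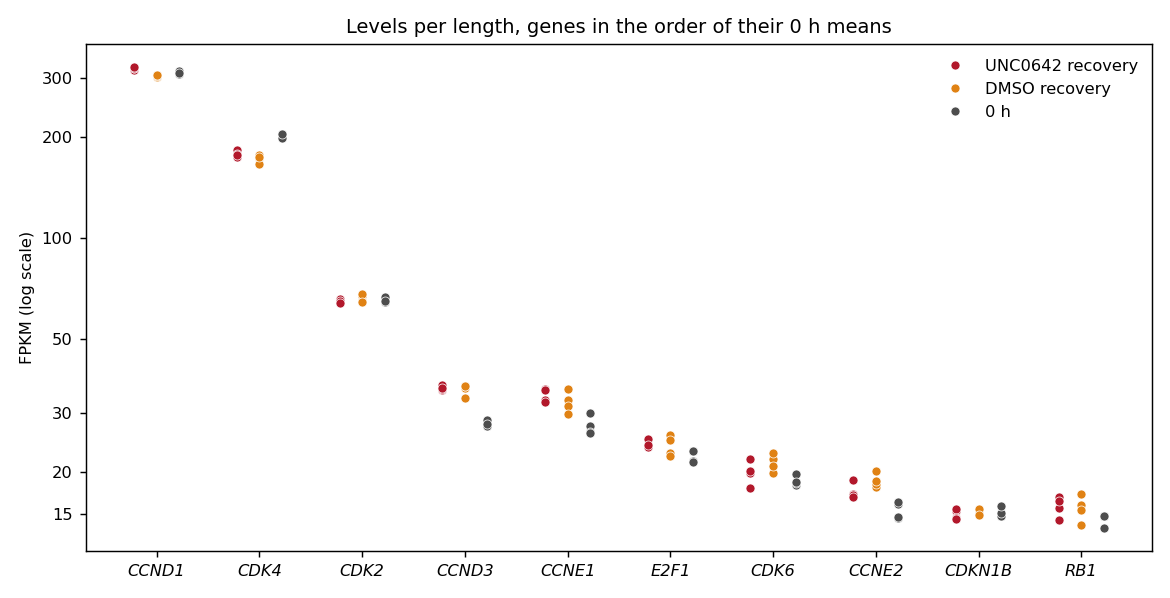
Level of each gene per length (FPKM, log scale) in each library, with genes in the order of their 0 h means and UNC0642 recovery, DMSO recovery and 0 h from left to right within a gene. CCND1 and CDK4 sit at 165 FPKM or more in every library, CDK2 between 64.0 and 67.7 FPKM, and the other 7 genes at 36.4 FPKM or less.

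Setting DMSO recovery against 0 h shows how transcripts stood after starvation and refeeding without the inhibitor. In each comparison with 0 h the groups also differ in recovery time, 24 h against 0 h. Time in culture therefore cannot be told apart from refeeding. Among the G1 genes, CCND3, CCNE1, CCNE2 and CDK6 were higher after DMSO recovery, by 21.3%, 12.4%, 17.2% and 9.64%. CDK4 fell by 18.2% and CCND1 fell by 5.89%. CDK2, CDKN1B, RB1 and E2F1 did not pass the test. Thus 4 of 10 rose and 2 fell, where 44.1% of all tested genes were called, 22.4% higher and 21.7% lower. The median log2 fold change of the 10 genes was 0.05, against 0.01 over all tested genes. The groups did not overlap for CCND3, CCNE2, CDK4 and CCND1, 2 of them higher and 2 lower. Over all genes the groups were apart for 38.3%, 19.3% higher and 19.0% lower. The test was edgeR's quasi-likelihood F-test with Benjamini-Hochberg adjustment over all tested genes, called at an adjusted p under 0.05. In bulk RNA, fewer cells in a given phase of the cycle and less RNA per cell cannot be told apart, and with libraries scaled by their totals alone the split of all calls moved from 50.8% to 67.5% higher.

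The comparison of UNC0642 recovery with 0 h uses the same 0 h libraries. CCND3, CCNE1 and CCNE2 were higher after UNC0642 recovery, by 22.9%, 17.2% and 9.32%, while CDK4 fell by 15.4% and CDK2 fell by 4.91%. CCND1, CDK6, CDKN1B, RB1 and E2F1 did not pass. That is 3 higher and 2 lower of 10, beside 47.0% of all tested genes called, 23.4% higher and 23.6% lower, and the 10 genes had a median log2 fold change of 0.04 against 0.01 over all. Groups were apart for CCND3, CCNE1, CDK4 and CDK2, 2 higher and 2 lower, and for 40.2% of all genes, 20.1% higher and 20.1% lower. Library totals alone moved the split of all calls from 49.8% to 67.5% higher, and the calls of CCNE2 and CDK2, with adjusted p of 0.0466 and 0.0464, lay at the edge of the threshold.

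The comparison of UNC0642 with DMSO recovery asks how cells exposed to the inhibitor during starvation differed 24 h after its removal. Of the 10 genes only CCND1 differed, at 5.12% higher after UNC0642 recovery, with the groups apart. Of all tested genes 4.58% were called, 2.06% higher and 2.53% lower, and the groups were apart for 10.5%, 5.05% higher and 5.42% lower. The other 9 were not called, with adjusted p of 0.151 or more, and their intervals reached at most 13.3% lower (CCNE2) and 12.1% higher (CCNE1). The median over the 10 genes was 0.01 on the log2 scale, against -0.00 over all.

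**Figure D2:**
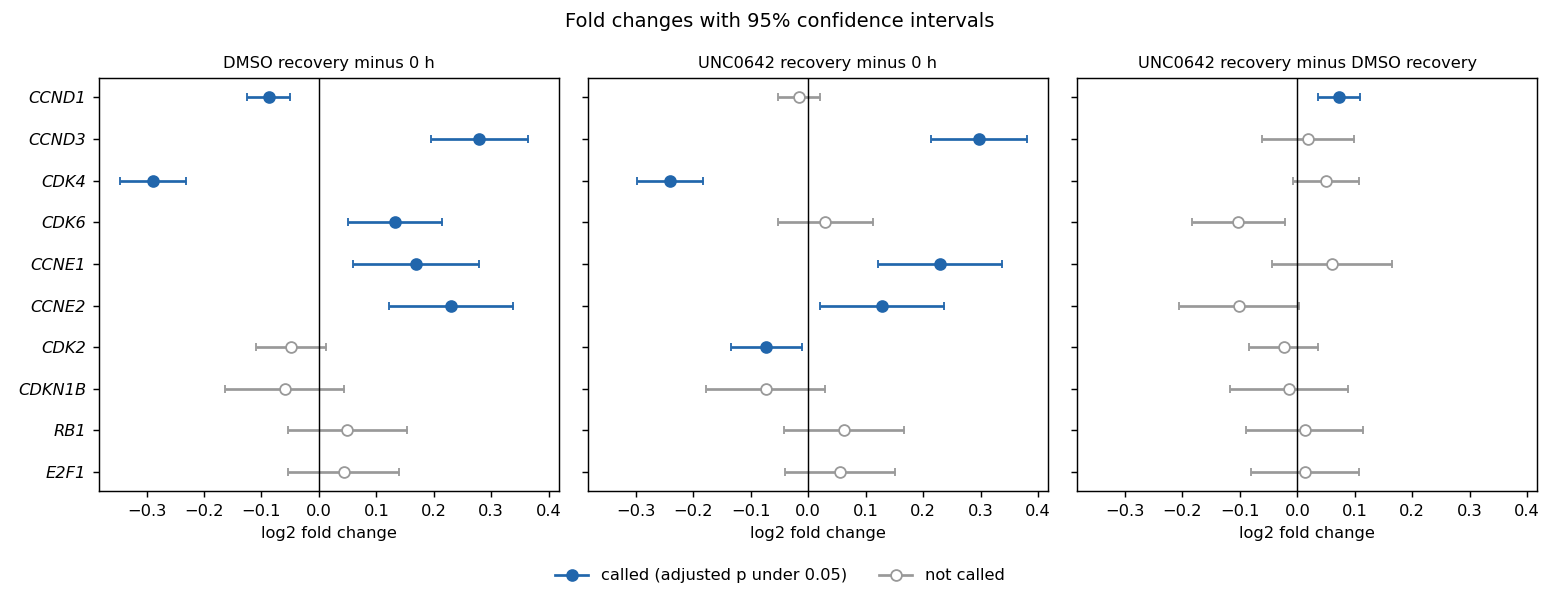
Log2 fold change of each gene with its 95% confidence interval in the 3 comparisons, with filled points for called genes. CDK4 lies left of 0 and CCND3 right of it in both comparisons with 0 h, and CCND1 is the 1 filled point between UNC0642 and DMSO recovery.

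The D-type cyclins moved in opposite directions after DMSO recovery. Counts scaled to library size (CPM) below are scaled with TMM factors, and each gene's libraries are listed in replicate order. CCND1, which couples growth signals to CDK4 and CDK6, had 1308, 1313, 1316 and 1337 CPM in UNC0642 recovery libraries, 1250.5, 1243, 1262 and 1260.3 CPM in DMSO recovery libraries and 1314, 1338, 1344 and 1334 CPM in 0 h libraries. Every DMSO library lay below every library of the other groups, and the UNC0642 libraries lay among and just under the 0 h libraries. The log2 fold change of DMSO recovery over 0 h was -0.09 ± 0.02 (SE, adjusted p = 0.000190), and that of UNC0642 over DMSO recovery was 0.07 ± 0.02 (adjusted p = 0.0144). Between UNC0642 recovery and 0 h it was -0.02 ± 0.02 (adjusted p = 0.504), an interval of -3.58% to 1.497%. That difference was called higher with library totals alone (0.04, adjusted p = 0.0361) and on FPKM in limma, and lower with a correction for gene length (-0.05, adjusted p = 0.0123). The fall after DMSO recovery was not called with library totals alone (-0.03, adjusted p = 0.109) or on FPKM in limma (adjusted p = 0.158 and 0.166 with the pseudocounts 1 and 0.1). The rise over DMSO was 0.07 within the long-gap libraries and 0.08 within the short-gap libraries, called in neither (adjusted p = 0.127 and 0.292), and it was not called without DMSO replicate 2 (adjusted p = 0.0541), without UNC0642 replicate 4 (0.0544) or without the 6 libraries with COL1A2 (0.242).

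CCND3, the cyclin that partners the same kinases at a lower level here, had 67.0, 66.3, 69.0 and 68.3 CPM after UNC0642 recovery, 63.6, 66.9, 68.6 and 68.2 CPM after DMSO recovery and 53.9, 54.1, 56.8 and 55.6 CPM at 0 h. All 8 recovery libraries were above all 4 of 0 h, and the recovery groups overlapped. It rose by 0.28 ± 0.04 on the log2 scale after DMSO recovery (adjusted p = 1.38e-06) and by 0.30 ± 0.04 after UNC0642 recovery (adjusted p = 3.82e-07). Between the recovery groups the difference was 0.02 ± 0.04 (adjusted p = 0.880), an interval of -4.24% to 7.06%. Within the short-gap libraries, with 1 DMSO library, the DMSO difference was 0.18 and not called (adjusted p = 0.0794), while the UNC0642 call held within both gap classes.

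**Figure D3:**
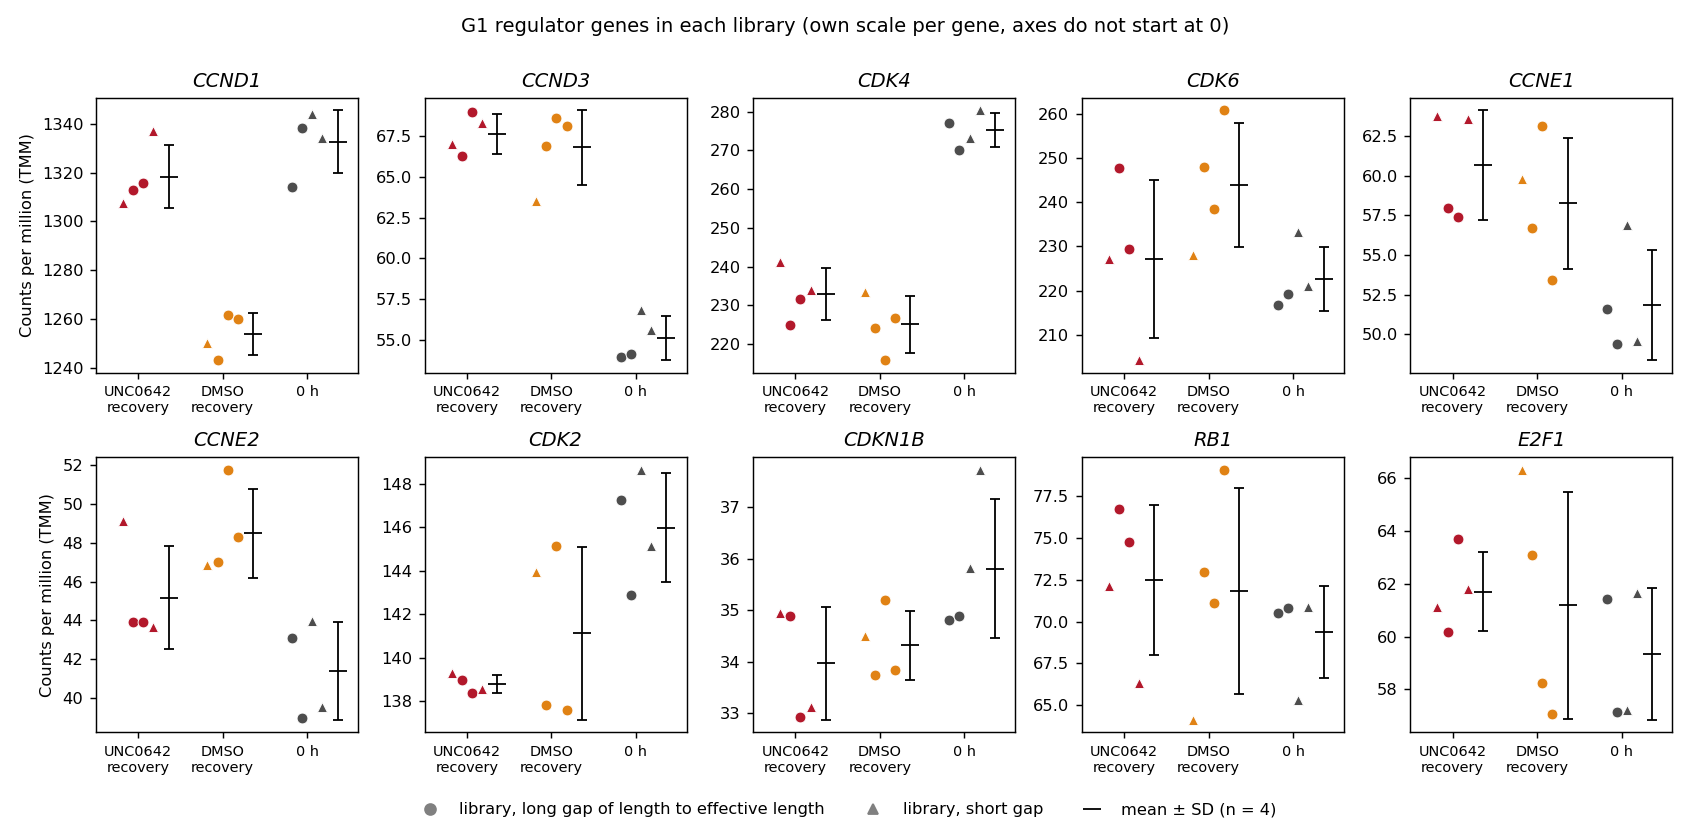
CPM of the 10 genes in each library, with UNC0642 recovery, DMSO recovery and 0 h from left to right, triangles for short-gap and circles for long-gap libraries, and the mean ± SD of 4 libraries; each panel has its own scale, which does not start at 0. CCND3 and CDK4 separate both recovery groups from 0 h, and CCND1 sets DMSO recovery apart from the other groups.

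The kinases CDK4 and CDK6, which carry out the first phosphorylation of RB1, also moved apart. CDK4 had 241, 225, 232 and 234 CPM after UNC0642 recovery, 234, 224, 216 and 227 CPM after DMSO recovery and 277, 270.2, 273 and 280.4 CPM at 0 h. Every recovery library was lower than every 0 h library, and the recovery groups overlapped each other. CDK4 fell by 0.29 ± 0.03 on the log2 scale after DMSO recovery (adjusted p = 4.04e-10) and by 0.24 ± 0.03 after UNC0642 recovery (adjusted p = 1.52e-08). These calls held in 26 of 26 alternative settings in each comparison, with log2 fold changes from -0.34 to -0.23 for DMSO and from -0.27 to -0.18 for UNC0642. Between UNC0642 and DMSO recovery CDK4 differed by 0.05 ± 0.03 (adjusted p = 0.392), an interval of -0.563% to 7.67%.

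CDK6 had 227, 248, 229.5 and 204 CPM after UNC0642 recovery, 228, 248, 239 and 261 CPM after DMSO recovery and 217, 219, 233 and 221 CPM at 0 h. The 3 groups overlapped, with UNC0642 replicate 4 the lowest library of all and DMSO replicate 4 the highest. It was called higher after DMSO recovery (0.13 ± 0.04, adjusted p = 0.00763) and not after UNC0642 recovery (0.03 ± 0.04, adjusted p = 0.565). The difference of UNC0642 from DMSO recovery itself was -0.10 ± 0.04, with an unadjusted p of 0.0145 and an adjusted p of 0.151, so the effects in the recovery groups were not shown to differ. That difference was called without UNC0642 replicate 2 (-0.15, adjusted p = 0.0196) and with no filter on low counts (adjusted p = 0.0309). The DMSO rise was 0.19 within long-gap libraries and 0.00 within short-gap libraries (adjusted p = 0.973), where 1 DMSO library stood against 2 of 0 h, and the UNC0642 difference was 0.13 (adjusted p = 0.0264) and -0.08 (adjusted p = 0.213) within the same classes. The DMSO rise also lost its call without DMSO replicate 4 (0.10, adjusted p = 0.0527), with DESeq2 (adjusted p = 0.0708) and with a correction for gene length (0.02, adjusted p = 0.678). CDK6 has the longest transcripts of the set, at 11636 to 11682 bases in the files, and over all tested genes the log2 fold change of DMSO recovery over 0 h had a Spearman correlation of 0.21 with gene length, as a description across genes, which are not independent.

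Both cyclin E genes were higher after recovery. CCNE1, whose product activates CDK2 at the start of S phase, had 63.7, 58.0, 57.4 and 63.6 CPM after UNC0642 recovery, 59.8, 56.7, 63.1 and 53.4 CPM after DMSO recovery and 51.6, 49.4, 56.9 and 49.6 CPM at 0 h. The UNC0642 libraries were all above the 0 h libraries, while DMSO replicates 2 and 4 fell under the highest 0 h library. The log2 rise was 0.23 ± 0.05 after UNC0642 recovery (adjusted p = 0.000615), called in 26 of 26 alternatives, and 0.17 ± 0.05 after DMSO recovery (adjusted p = 0.0103). The DMSO call was lost without DMSO replicate 3 (0.13, adjusted p = 0.0658). It was also lost without the 6 libraries with COL1A2 (0.21), where replicate 4 was the only 0 h library. Within short-gap libraries, with 1 DMSO library, the DMSO difference was 0.17 and not called.

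CCNE2, the paralogue with the same partner, had 49.1, 43.9, 43.9 and 43.6 CPM after UNC0642 recovery, 46.8, 47.0, 51.8 and 48.3 CPM after DMSO recovery and 43.1, 38.9, 43.9 and 39.5 CPM at 0 h. All DMSO libraries exceeded all 0 h libraries, whereas 3 of the 4 UNC0642 libraries lay between 43.6 and 43.9 CPM, within or next to the 0 h range. CCNE2 rose by 0.23 ± 0.05 on the log2 scale after DMSO recovery (adjusted p = 0.000639). After UNC0642 recovery it was higher by 0.13 ± 0.05 (adjusted p = 0.0466), a call lost in 12 of 26 alternatives, among them those without UNC0642 replicate 1 (0.08, adjusted p = 0.225), 0 h replicate 2 (0.10, 0.174), 0 h replicate 4 (0.11, 0.130), DMSO replicate 2 (0.0514) or DMSO replicate 4 (0.0504). Within short-gap libraries the DMSO rise was 0.16 and not called (adjusted p = 0.222). UNC0642 and DMSO recovery differed by -0.10 ± 0.05 (adjusted p = 0.311), an interval of -13.3% to 0.232%. For CCNE1 the corresponding value was 0.06 ± 0.05 (adjusted p = 0.599), an interval of -3.04% to 12.1%.

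CDK2, the kinase that cyclin E activates, had 139.3, 139.0, 138.4 and 138.5 CPM after UNC0642 recovery, 144, 138, 145 and 138 CPM after DMSO recovery and 147, 143, 149 and 145 CPM at 0 h. The UNC0642 libraries lay within 1 CPM of each other and below all 0 h libraries, and the DMSO libraries overlapped both. CDK2 was lower after UNC0642 recovery by 0.07 ± 0.03 on the log2 scale (adjusted p = 0.0464), a call lost in 17 of 26 alternatives, among them those without any 1 UNC0642 library, 0 h replicates 1, 3 or 4 or DMSO replicate 1, with adjusted p reaching 0.743 with library totals alone. UNC0642 and DMSO recovery differed by -0.02 ± 0.03 (adjusted p = 0.749), an interval of -5.70% to 2.57%. After DMSO recovery the value was -0.05 ± 0.03 (adjusted p = 0.195), an interval of -7.34% to 0.882%, and with library totals alone it turned to 0.0047.

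The inhibitor and the RB1/E2F1 switch passed in no comparison. CDKN1B, which encodes p27, had 34.9, 34.9, 32.9 and 33.1 CPM after UNC0642 recovery, 34.5, 33.7, 35.2 and 33.8 CPM after DMSO recovery and 34.8, 34.9, 35.8 and 37.7 CPM at 0 h. Its intervals were -11.6% to 2.09% for UNC0642 over 0 h (adjusted p = 0.241) and -10.7% to 3.13% for DMSO over 0 h (adjusted p = 0.364). The groups overlapped, with the highest library at 0 h.

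RB1, the brake on E2F, had 72.1, 76.7, 74.8 and 66.4 CPM after UNC0642 recovery, 64.1, 73.0, 71.1 and 79.1 CPM after DMSO recovery and 70.5, 70.8, 65.3 and 70.9 CPM at 0 h. Its widest spread was in the DMSO libraries, which held both the lowest and the highest value of all 12. The intervals were -2.83% to 12.2% for UNC0642 over 0 h (adjusted p = 0.329) and -3.71% to 11.2% for DMSO over 0 h (adjusted p = 0.457).

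E2F1, the factor that RB1 restrains, had 61.1, 60.2, 63.7 and 61.8 CPM after UNC0642 recovery, 66.3, 63.1, 58.2 and 57.1 CPM after DMSO recovery and 61.4, 57.2, 57.2 and 61.6 CPM at 0 h, with overlap of all groups. Its intervals were -2.70% to 11.1% for UNC0642 over 0 h (adjusted p = 0.3398) and -3.60% to 10.1% for DMSO over 0 h (adjusted p = 0.486). With library totals alone E2F1 was called higher in UNC0642 recovery than at 0 h (adjusted p = 0.0426). Between UNC0642 and DMSO recovery the intervals of CDKN1B, RB1 and E2F1 were -7.76% to 6.28%, -5.97% to 8.24% and -5.43% to 7.68%. These tests do not show that the 3 genes were unaltered, and differences of several percent lie within each interval.

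Paralogue ratios within a library do not depend on how libraries are scaled, and 3 of them were tested over samples in each of the 3 comparisons by exact two-sided permutation, 4 libraries against 4, with adjustment over the 9 tests. CCND1 exceeded CCND3 in FPKM 8.99 ± 0.129-fold after UNC0642 recovery, 8.64 ± 0.281-fold after DMSO recovery and 11.2 ± 0.179-fold at 0 h. The log2 ratio differed by -0.31 for UNC0642 over 0 h and by -0.37 for DMSO over 0 h, each with an exact permutation p = 0.0286, the smallest that this design can give, and adjusted p = 0.0429. CCND1 thus made up 90.0% ± 0.131, 89.6% ± 0.294 and 91.8% ± 0.119 of the D-type cyclin FPKM, whose sum was 356 ± 2.96, 339 ± 3.38 and 338 ± 3.21 FPKM in the same groups. Between the recovery groups the log2 ratio differed by 0.06 (exact permutation, adjusted p = 0.147). The FPKM sums, here and for the other pairs below, depend on how libraries are scaled, unlike the ratios. With TMM factors CCND1 averaged 1318 CPM after UNC0642 recovery, 1254 CPM after DMSO recovery and 1333 CPM at 0 h. CCND3 averaged 67.7, 66.8 and 55.1 CPM in the same order.

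CDK4 exceeded CDK6 in FPKM 8.95 ± 0.794-fold after UNC0642 recovery, 8.08 ± 0.545-fold after DMSO recovery and 10.7 ± 0.445-fold at 0 h. The log2 ratio differed from 0 h by -0.26 and -0.41 (exact permutation, adjusted p = 0.0429 each), and the recovery groups overlapped (0.14, adjusted p = 0.161). The difference from 0 h was -0.39 and -0.48 within long-gap libraries and -0.14 and -0.24 within short-gap libraries for UNC0642 and DMSO recovery, values without a test. The 2 kinases together came to 198 ± 3.46, 193 ± 4.75 and 220.0 ± 2.44 FPKM. CDK4 has 1443 bases and CDK6 11636 to 11682, and log2 fold changes over 0 h correlated with gene length across tested genes. Spearman correlations were 0.16 for UNC0642 and 0.21 for DMSO recovery. The part of this trend in the ratio was not tested.

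CCNE1 exceeded CCNE2 1.94 ± 0.105-fold in FPKM after UNC0642 recovery, 1.72 ± 0.0959-fold after DMSO recovery and 1.78 ± 0.0556-fold at 0 h. This ratio set the UNC0642 libraries above all others, with log2 differences of 0.12 from 0 h and 0.17 from DMSO recovery (exact permutation, adjusted p = 0.0429 each), and DMSO recovery and 0 h differed by -0.05 (adjusted p = 0.314). The sum of the cyclin E genes was 51.4 ± 2.17 FPKM after UNC0642 recovery, 51.1 ± 2.99 FPKM after DMSO recovery and 42.9 ± 2.64 FPKM at 0 h. Each of the 6 ratio differences called kept its direction whichever of the 12 libraries was left out. Each also lost its call in 7 of these 12 fits, where the adjusted p of the exact permutation reached 0.0643 or 0.0857. With all libraries, the p of each was the smallest that 4 libraries against 4 allow. The adjusted p moved with the ties among the 9 tests, so it says nothing of stability.

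**Figure D4:**
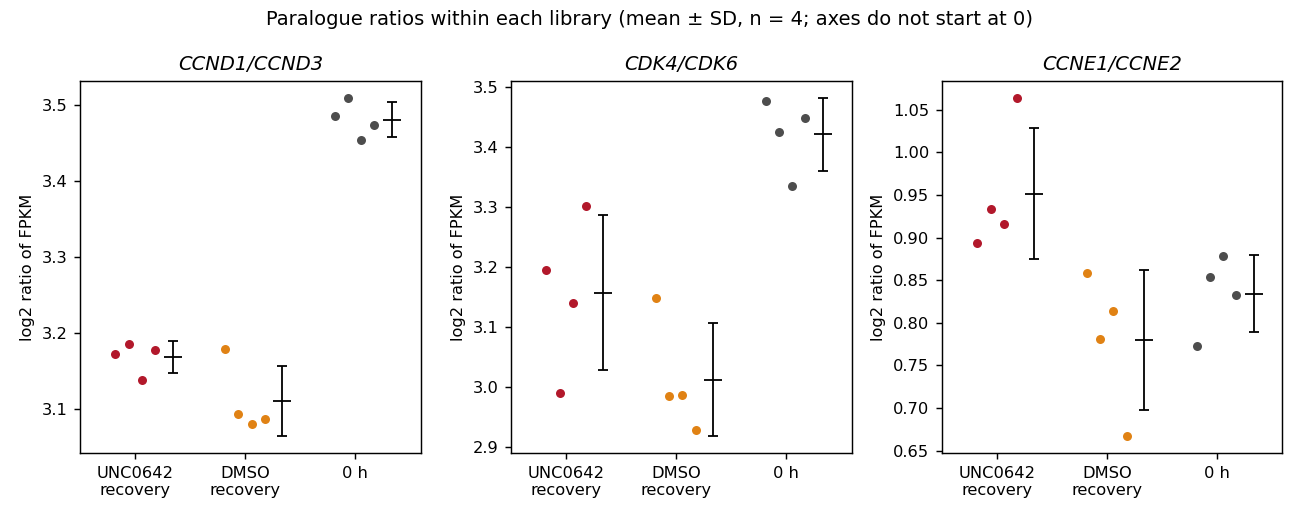
Log2 ratio of FPKM of CCND1 to CCND3, CDK4 to CDK6 and CCNE1 to CCNE2 in each library, with UNC0642 recovery, DMSO recovery and 0 h from left to right and the mean ± SD of 4 libraries; axes do not start at 0. The recovery groups lie below 0 h in the D-type cyclin and kinase ratios, and the UNC0642 libraries lie above the rest in the cyclin E ratio.

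Some of these genes share exon bases with a gene on the other strand in GENCODE 29. No source used here names the counting strand, so reads of such pairs cannot be told apart where they overlap. Shares below are of GENCODE exon bases, 2076 for CDK4 and 3432 for CCNE2. The counted transcripts had 1443 and 2726 bases, and the shares within them are not known. TSPAN31, a tetraspanin gene, covered 51.9% of the exon bases of CDK4. It had 99.0 to 167 counts per library against 3679 to 4871 for CDK4, and was called in no comparison. INTS8, a subunit gene of the Integrator complex, covered 47.5% of CCNE2 and had 1301 to 1832 counts against 564 to 993 for CCNE2. INTS8 was at 84.0 ± 2.55 CPM after UNC0642 recovery, 90.3 ± 2.69 CPM after DMSO recovery and 95.6 ± 3.50 CPM at 0 h. It was lower in UNC0642 recovery than at 0 h (-0.19 ± 0.04, adjusted p = 0.000103), opposite to CCNE2. DMSO recovery over 0 h was also opposite to CCNE2 (-0.08 ± 0.04, adjusted p = 0.0711, not called). Between UNC0642 and DMSO recovery INTS8 went the way of CCNE2 (-0.11 ± 0.04, adjusted p = 0.103, not called). The part of INTS8 in the CCNE2 values, and so in the CCNE1 to CCNE2 ratio, was not tested. LTO1, listed in the files under its older symbol ORAOV1, covered 11.3% of CCND1, with 272 to 452 counts against 19027 to 26421, and was not called. The antisense gene AC025162.1, which has no counts of its own here, covered 11.8% of CDK2, and its part in the CDK2 values was not tested.

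For each of the 7 genes called in some comparison, the tested gene with the most similar profile was sought by the root mean square difference of log2 CPM, each gene centred on its own mean over the 12 libraries, among the 11437 genes whose mean log2 CPM reached 1. The nearest were CALU to CCND1 (0.02), SEPT9 to CCND3 (0.03), BTF3 to CDK4 (0.03), SMC2 to CDK6 (0.04), TMEM132A to CCNE1 (0.05), MLKL to CCNE2 (0.05) and LAPTM4A to CDK2 (0.02). CCND1 and CDK2 varied little, and 40.3% and 41.9% of the genes lay within 0.1 of them, against 18.7% for CDK4, 9.65% for CCND3 and 4.91% for CCNE1.

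Around these 10 genes, a wider list of G1 and RB/E2F control had 37 of 38 genes tested. After DMSO recovery 8 were higher and 11 lower (51.4% called, against 44.1% of all genes), after UNC0642 recovery 7 were higher and 12 lower (51.4% against 47.0%), and between the recovery groups 1 was lower (2.70% called, against 4.58% of all genes). The median log2 fold changes were -0.03, -0.06 and -0.01 in these comparisons. CDKN1A, which encodes the CDK inhibitor p21, averaged 201 ± 4.89 CPM after UNC0642 recovery, 212.5 ± 6.86 CPM after DMSO recovery and 110.0 ± 3.31 CPM at 0 h. It was higher by 0.87 ± 0.03 in UNC0642 recovery and by 0.95 ± 0.03 in DMSO recovery, the largest change of the list and several times that of any of the 10 genes. RBL2, which encodes the RB relative p130, was at 35.8 ± 1.69, 36.8 ± 2.46 and 22.4 ± 1.58 CPM in the same groups, higher by 0.68 ± 0.06 and 0.71 ± 0.06 in the recovery groups. RBBP4, a histone chaperone that binds RB1, was higher by 0.24 ± 0.02 and 0.32 ± 0.02, and was the gene lower in UNC0642 than in DMSO recovery (-0.09 ± 0.02, adjusted p = 0.0351). That call was lost in 13 of 26 alternatives, 6 of which left out a library (DMSO replicates 2, 3 or 4 or UNC0642 replicates 1, 3 or 4). CDC37, the co-chaperone that helps fold CDK4, differed by -0.22 ± 0.03 in both recoveries, a fall.

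Of 26 E2F target genes of early S phase, all tested, 1 was higher and 10 lower after UNC0642 recovery, and 3 were higher and 10 lower after DMSO recovery. The shares called were 42.3% and 50%, against 47.0% and 44.1% of all genes, and the medians were -0.05 and -0.03. Lower in UNC0642 and DMSO recovery than at 0 h were the helicase subunits MCM7 (-0.23 ± 0.02 and -0.15 ± 0.02) and MCM5 (-0.14 ± 0.02 and -0.12 ± 0.02) and the transcription factor gene MYBL2 (-0.19 ± 0.03 and -0.15 ± 0.03). Between UNC0642 and DMSO recovery 2 were lower (7.69%, against 4.58% of all genes), MCM4 (-0.09 ± 0.02, adjusted p = 0.0323) and MCM7 (-0.08 ± 0.02, adjusted p = 0.0496). The count was below 2 in 19 of 26 alternatives and 0 in 8 of them, among these the fits without DMSO replicates 2 or 3 or UNC0642 replicates 1 or 2.

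The 15 genes of signals upstream of cyclin D1 were all tested. After UNC0642 recovery 5 were higher and 8 lower (86.7% called, against 47.0% of all genes). After DMSO recovery 3 were higher and 9 lower (80% called, against 44.1%). The lists were chosen with earlier results of these data known, so their shares are descriptive and no test of enrichment. MYC, a growth factor-responsive transcription factor gene, was at 342 ± 6.27 CPM after UNC0642 recovery, 332 ± 5.69 CPM after DMSO recovery and 409 ± 6.18 CPM at 0 h, lower in both (-0.26 ± 0.02 and -0.30 ± 0.02). SP1, a general promoter-binding factor gene, was lower after UNC0642 recovery (-0.23 ± 0.03), and FOSL1 and NFKB1, genes of an AP-1 and an NF-κB subunit, were lower after DMSO recovery (-0.31 ± 0.04 and -0.24 ± 0.04).

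The growth-signal genes EGR1, JUN, FOS and FOSL1 were higher after UNC0642 than after DMSO recovery. EGR1 was at 76.6 ± 4.97 CPM after UNC0642 recovery, 32.6 ± 3.18 CPM after DMSO recovery and 50.8 ± 4.66 CPM at 0 h, so that it was higher than 0 h in UNC0642 recovery (0.60 ± 0.06) and lower than 0 h in DMSO recovery (-0.63 ± 0.06). JUN, an AP-1 gene, was at 42.0 ± 0.957, 27.7 ± 2.34 and 28.4 ± 2.68 CPM, higher than 0 h in UNC0642 recovery (0.56 ± 0.06). Between UNC0642 and DMSO recovery 4 genes of this list, chosen with earlier results known, were higher and 2 lower (40% called, against 4.58% of all genes). These were EGR1 (1.23 ± 0.06, adjusted p = 3.74e-16), JUN (0.60 ± 0.06, adjusted p = 1.31e-08), FOS (0.79 ± 0.13, adjusted p = 6.51e-05) and FOSL1 (0.21 ± 0.04, adjusted p = 0.000240), with TCF7L2 (-0.14 ± 0.03) and SP1 (-0.12 ± 0.03) lower, the last pair being named after their values were seen. FOS was low, at 6.26 ± 0.463 CPM after UNC0642 recovery, 3.61 ± 0.246 CPM after DMSO recovery and 4.83 ± 0.245 CPM at 0 h. CCND1, downstream of the signals of this list in textbook accounts, differed by 0.07 in the same comparison, a call lost in 5 of 26 alternatives. A link between CCND1 and these genes was not tested.

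**Figure D5:**
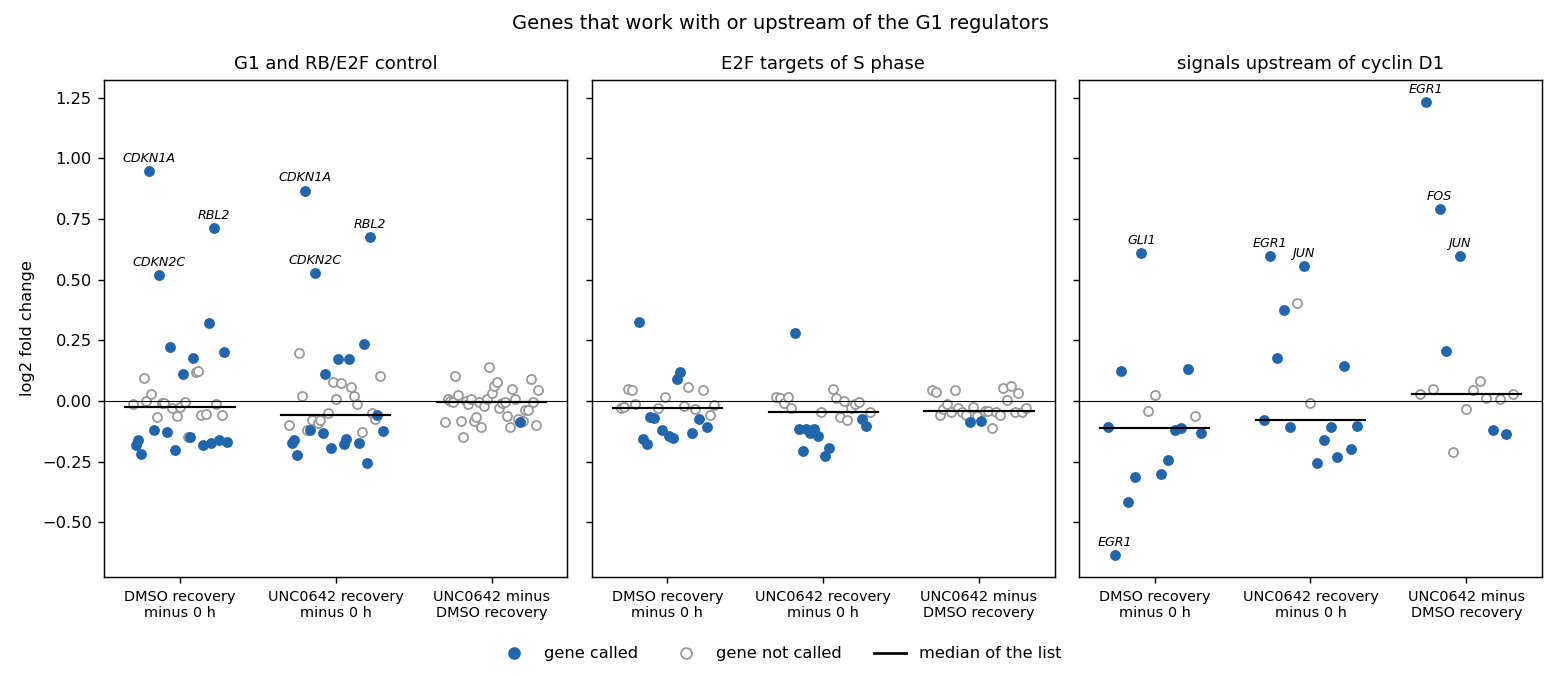
Log2 fold change of each tested gene of the 3 wider lists in the 3 comparisons, with filled points for called genes and a bar at the median of the list. CDKN1A and RBL2 lie above the rest of G1 control in both comparisons with 0 h, and EGR1, FOS and JUN lie above the other upstream genes between UNC0642 and DMSO recovery.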

How the data were processed

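RNA of 12 HCT116 libraries was analysed. The submitters' processing notes name RSEM 1.2.4, Bowtie and hg18. Per the file headers, the deposited files hold expected counts (RSEM's fractional estimates) and FPKM per gene, made by the authors, with lengths and effective lengths. No source used here names the strand or the annotation. Expected counts were rounded and tested with edgeR 4.0.16 in R 4.3.3 (filterByExpr, TMM, quasi-likelihood F-test, a mean per group, all 12 libraries in 1 fit), with two-sided tests and Benjamini-Hochberg adjustment over 12741 genes, called under 0.05. Standard errors come from the fit's F statistic, and 95% intervals use 33.0 degrees of freedom. The procedure was tested on simulated data, with set changes larger than most of those of the 10 genes. The pass mark covered only the larger set changes, so it says nothing of changes as small as theirs. Alternatives used DESeq2 1.42.0 and limma 3.58.1, the latter on log2(FPKM + 1) and log2(FPKM + 0.1). The 10 genes, the lists and the alternatives were chosen with earlier results of these data known. Of each list, up to 4 called genes per comparison are named by smallest p, and per called gene of the 10 the gene with the closest profile; 1 gene that this rule names is not reported here. Comparisons with 0 h share its libraries. GENCODE 29 gave exon overlaps and RefSeq the promoters (GRCh38.p14), used only for sequence and position.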

Additional observations from a re-analysis of the deposited data

Results flagged for a closer look

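In 3 of 39 sets of 4 libraries, 1 library lay far from the other 3 relative to the range of the set, and chance alone would do this in about 1 set in 20. CCNE2 was at 49.1 CPM in UNC0642 replicate 1, where the other UNC0642 libraries had 43.6 to 43.9 CPM. The CCNE2 call of UNC0642 recovery over 0 h was lost in 12 of 26 alternatives, leaving out that library among them. RB1 was at 65.3 CPM in 0 h replicate 3, below the 70.5 to 70.9 CPM of the other 0 h libraries. The log2 ratio of CCND1 to CCND3 was 3.18 in DMSO replicate 1, the only short-gap library of its group, where the other DMSO libraries had 3.08 to 3.09.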

How the results depend on the processing

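For the 10 genes, 780 fold changes were recomputed, over 26 alternatives in each of 3 comparisons. Of these, 702 kept direction and call, while 46 lost the call and 5 gained one with the direction kept. The other 27 changed sign, whether or not the call changed as well. The causes were not tested. DMSO recovery over 0 h: library totals alone and FPKM in limma left 1 gene lower and turned CDK2 to 0.0047 and, with the pseudocounts 1 and 0.1, to 0.0087 and 0.0088. RB1 turned to -0.0031 with length correction and -0.088 in short-gap libraries (-0.0029 to 0.106 leaving out a library), and E2F1 to -0.060 without the COL1A2 libraries. Short-gap libraries called 2684 genes and 0 of the 10 higher, and 2987 genes were called without the COL1A2 libraries, against 5617. UNC0642 recovery over 0 h: library totals called 5 higher and 1 lower, with CCND1 at 0.044, as on FPKM (0.044 with either pseudocount, 1 lower). The lower count was also 1 without a filter, with the stricter filter, with the 8 libraries compared, within each gap class and without the COL1A2 libraries, and 1 to 2 leaving out a library. CDK6 turned to -0.051 with length correction and -0.078 in short-gap libraries (-0.014 to 0.077 leaving out a library), and E2F1 to -0.029 without the COL1A2 libraries, where 2836 genes were called, against 5990.0. UNC0642 over DMSO recovery: 267 and 123 genes were called within long-gap and short-gap libraries, 277 without the COL1A2 libraries (0 of the 10 higher in each) and 375 with log2(FPKM + 0.1), against 584. Without a filter 1 was lower (CDK6), and leaving out a library gave 0 to 1 higher and 0 to 1 lower. Leaving out a library, log2 fold changes ran from -0.0066 to 0.031 for CCND3, -0.029 to 0.00035 for CDKN1B, -0.040 to 0.065 for RB1 and -0.020 to 0.054 for E2F1. CCND3 was at -0.027, CDKN1B at 0.028 and RB1 at -0.0020 without the COL1A2 libraries, CCND3 at -0.0040 within long-gap libraries and E2F1 at -0.11 within short-gap ones.

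The 6 log2 ratio differences called with all libraries each lost the call in 7 of the 12 fits that left out a library. The ranges over these fits were as follows. CCND1/CCND3 ran from -0.39 to -0.36 (DMSO over 0 h), -0.32 to -0.30 (UNC0642 over 0 h) and 0.049 to 0.081 (UNC0642 over DMSO, called at 0.081 without DMSO replicate 1). CDK4/CDK6 ran from -0.45 to -0.38 (DMSO over 0 h) and -0.31 to -0.21 (UNC0642 over 0 h), and CCNE1/CCNE2 from 0.080 to 0.14 (UNC0642 over 0 h) and 0.13 to 0.20 (UNC0642 over DMSO). In long-gap libraries CCND1/CCND3 was -0.34 and -0.41 and CDK4/CDK6 -0.39 and -0.48 for UNC0642 and DMSO over 0 h. In short-gap libraries, an alternative chosen after seeing the data, the same were -0.29 and -0.29 and -0.14 and -0.24, and CCND1/CCND3 was -0.0037 for UNC0642 over DMSO. These values have no test.

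Replicate numbers were not taken as pairs, since no label says that a number marks a shared batch. Deviations of same-numbered libraries of different groups had correlations of -0.10 to 0.045 over all tested genes (0 of 12 pairs over 0.1). Differently numbered libraries were not set beside them, so these values cannot exclude a shared batch. A replicate block left the calls of the 10 genes at 4 and 2 for DMSO over 0 h, 3 and 2 for UNC0642 over 0 h and 1 and 0 for UNC0642 over DMSO, higher and lower in that order, with 5668, 5998 and 633 of all genes called. Ratio differences under the block kept their values (-0.37, -0.31, 0.12, 0.17, -0.41 and -0.26) but not their calls (adjusted p = 0.161 by exact permutation), since the exact test of 4 pairs cannot reach 0.05. In the wider lists, calls ran from 4 to 20 over 0 h and from 0 to 6 between recovery groups. Each of the 10 genes had 515 counts or more in every library.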
